A study of Mus musculus with 20 samples.

Results

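The genes for the proteins of the cytosolic ribosome were measured in mouse kidney after acute loss of Fh1, the gene for fumarate hydratase, an enzyme of the tricarboxylic acid cycle. Members were the rows of the gene-level count table whose symbol names a small or large subunit protein, including Rplp0, Rplp1, Rplp2 and Rpsa and leaving out the S6 kinases. There were 85 members of 24421 genes in the table, 33 of the small subunit and 52 of the large subunit. The libraries fell into 4 groups of 5, Fh1-/- and Fh1+/+ kidneys taken at day 5 and at day 10. Fh1-/- mice had lost exons 3 and 4 of floxed Fh1 alleles through a tamoxifen-inducible Cre recombinase (Cre-ERT2) driven ubiquitously from the Rosa26 locus. Fh1+/+ mice were control littermates that carried the same Cre-ERT2 but no floxed Fh1 allele. Every mouse, control or null, had 3 intraperitoneal doses of 2 mg tamoxifen, given every other day, and the strain was mixed C57BL/6 129/SvJ. The labels give an age of 12 weeks for every library, and the paper a range of 10 to 12 weeks. The comparison therefore asks what the loss of Fh1 did to these transcripts over the first days, against mice that had the same drug. The labels number the replicates but tie none to an animal, and a p-value here speaks only of how much these samples vary.

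A ribosome is built from ribosomal RNA and about as many different proteins as there are genes in this set, most of them present in a single copy per subunit. The mRNAs of nearly all of these proteins begin with a C followed by a stretch of C and T, the terminal oligopyrimidine (TOP) tract, through which mTOR signalling and the RNA-binding protein Larp1 adjust their translation and stability. In the kidney, as in other organs, they are among the most abundant polyadenylated mRNAs, and their genes have left many processed pseudogene copies in the genome.

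The start sites of members that the results turn on are given first because the pyrimidine tract is the feature these genes share outside the protein itself. Each line gives 15 bases either side of the RefSeq start (GRCm38.p6), read 5′ to 3′ on the strand of the gene, and capitals mark the longest run of at least 7 bases that are C or T.
Rps18 (chr17:33955651-33955680, minus strand): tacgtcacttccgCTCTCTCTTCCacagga
Rps9 (chr7:3704026-3704055, plus strand): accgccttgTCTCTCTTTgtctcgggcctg
Rpl4 (chr9:64173372-64173401, plus strand): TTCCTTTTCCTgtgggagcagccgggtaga
Rplp2 (chr7:141447636-141447665, plus strand): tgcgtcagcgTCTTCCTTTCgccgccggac
Rps6 (chr4:86857353-86857382, minus strand): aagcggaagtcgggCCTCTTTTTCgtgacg
Rps27 (chr3:90213634-90213663, minus strand): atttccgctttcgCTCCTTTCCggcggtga
Rpl22l1 (chr3:28805493-28805522, plus strand): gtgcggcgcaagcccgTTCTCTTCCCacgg
Rpl15 (chr14:18270972-18271001, minus strand): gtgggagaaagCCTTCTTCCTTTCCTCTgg
Rpl22 (chr4:152325711-152325740, plus strand): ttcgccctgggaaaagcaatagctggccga
Rpl3l (chr17:24727811-24727840, plus strand): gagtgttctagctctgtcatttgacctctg
The windows of Rpl22 and Rpl3l, the first of 2 RefSeq starts listed for each, held no such run. Within 25 bases either side of a start, a run of at least 7 C or T bases was present for 38 of the 64 members with a RefSeq window, or 59.4%. It was present for 8842 of 27025 genes in all, or 32.7%, and for 22 of 69 mitochondrial ribosomal protein genes, or 31.9%. The run was present in 14 of 24 small and 24 of 40 large subunit genes. On the other strand the run was in 18.8% of members and 35.4% of all genes. These matches describe the letters in a fixed window and not the start used in kidney.

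Placed reads differed greatly between members, and stretches of a ribosomal protein transcript are often found in its pseudogenes as well. The part of such matches in the counts was not tested. The authors removed reads with a mapping quality under 20, so what remains is mostly reads placed at a single site. To measure how much of each member is open to such reads, every stretch of 50 bases of its transcript was looked up in the transcripts of the other genes of GENCODE release 21. The share of stretches found in no other gene ran from 1.35% for Rps27 to 100% for Rpl3l, with a median of 45.0%. Of the 84 members with a coding transcript, 81 shared a stretch with at least 1 annotated pseudogene. Across these 84 genes the Spearman correlation of that share with the reads summed over the libraries was 0.436, a description across genes that share the same libraries.

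**Figure D1:**
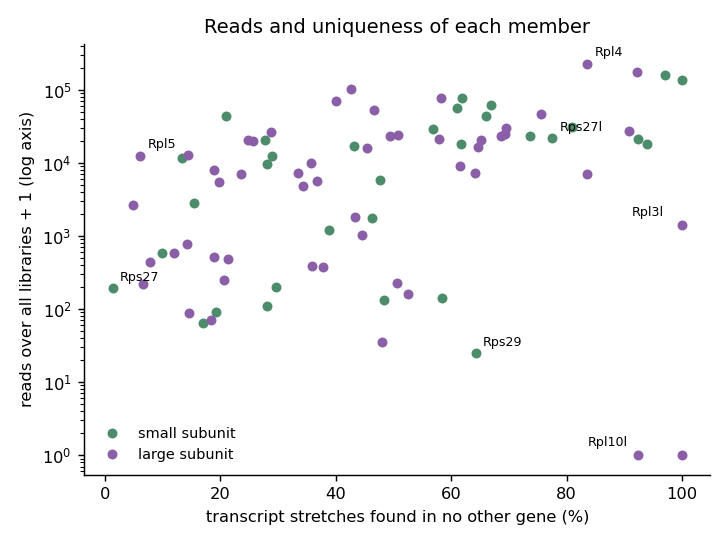
Reads of each member summed over the 20 libraries, plus 1, on a log axis, against the percentage of its 50-base stretches found in no other gene, with small and large subunit genes in separate colours. Rps27 has 195 reads at 1.35%, but Rpl5 has 12581 at 6.16%, Rps29 has 24 reads at 64.2% and Rpl10l has 0 reads at 92.4%, so uniqueness does not set the count alone.

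Summed over the 20 libraries, the median member had 9094 reads and the highest, Rpl4, had 229428. The 5 members with more than 100000 reads held 40.3% of all member reads. At the other end 25 members had fewer than 1000 reads and 13 had fewer than 200, among them proteins that every ribosome carries, such as Rps29, Rps13 and Rpl38. Their levels here are levels of placed reads and cannot be read as levels of mRNA. The testis-expressed copies Rpl10l and Rpl39l were at 0 in all 20 libraries, although 92.4% and 100% of their stretches are unique. A count of 0 allows up to 3 reads per library, counting error only.

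Several rows outside the set held the reads of members. Gm15772 had the same count as Rpl26 in all 20 libraries, 26693 reads in total. Rpl34-ps1 had 23307 reads against 23378 for Rpl34, never more than 8 apart in a library, and Gm12191 had 7088 against 7171 for Rpl30, never more than 12 apart. The retrocopy rows Rpl14-ps1 and Rplp2-ps1 had 3147 and 638 reads of their own, against 23999 for Rpl14 and 25211 for Rplp2. Whether these rows duplicate a locus or split its reads is not shown by the table, and they were left out of the shares. Some members also overlap a gene on the opposite strand. Tlcd1 covers 59.7% of the exon bases of Rpl23a and had 13517 reads against its 779, and Fam69a covers 24.3% of those of Rpl5 and had 19930 reads against 12581. No source used here says whether strand was used in counting, and without it the reads of such pairs cannot be told apart. On the same strand another gene covers 71.5% of the transcript of Rpl24, which had 69 reads. Such overlap also covers 63.1% of Rpl36al, 59.3% of Rpl13a and 53.6% of Rps10. These had 5717, 103970 and 16891 reads, so a low count did not go with it throughout.

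Library totals ran from 16654829 to 25001294 counts. On the first principal component of all genes, which held 42.7% of the variance, Fh1-/- day 10 replicates 1 and 3 lay at -124.9 and -128.0 and the other 18 libraries between -30.2 and 31.4. The counts and medians at day 10, and the log2 differences of the members named first, are therefore also given without these 2 libraries. The gene-level counts of Fh1 itself did not check the labels, since the exons that remain are counted too: they were 350 ± 62.4 counts per 1000000 (CPM) in Fh1-/- and 238 ± 13.2 in Fh1+/+ at day 10 (SD, n = 5), and 221 ± 14.7 and 249 ± 20.1 at day 5. As a check of the tissue label, the 10 proximal tubule genes summed to at least 5193 CPM in every library.

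Member transcripts took a small part of the counts. In Fh1-/- kidneys at day 10 they were 0.674%, 0.574%, 0.721%, 0.58% and 0.557% of all counts in replicates 1 to 5, against 0.495%, 0.532%, 0.588%, 0.581% and 0.466% in Fh1+/+. The 2 highest shares were those of replicates 1 and 3, and the other 3 Fh1-/- libraries lay within the range of the controls. The group means were 0.621% ± 0.0720 and 0.532% ± 0.0532 (SD, n = 5). At day 5 they were 0.472% ± 0.0532 in Fh1-/- and 0.482% ± 0.0437 in Fh1+/+, so the genotypes differed by less than the spread between replicates.

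Both subunits followed this course. Small subunit genes had 0.265% ± 0.0356 of the counts in Fh1-/- at day 10 against 0.224% ± 0.0238 in Fh1+/+, and large subunit genes 0.356% ± 0.0366 against 0.309% ± 0.0298. Without replicates 1 and 3 the Fh1-/- means were 0.240% and 0.330%, and the excess over Fh1+/+ was then below 1 SD of the controls for each subunit. The ratio of small to large subunit counts was 0.744 ± 0.0252 in Fh1-/- and 0.724 ± 0.0180 in Fh1+/+ at day 10, and 0.696 ± 0.0259 and 0.711 ± 0.00670 at day 5. Shares are shares of a total, so genes that take more or less of the total move them. In bulk kidney, fewer cells of a type and less RNA per cell cannot be told apart.

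**Figure D2:**
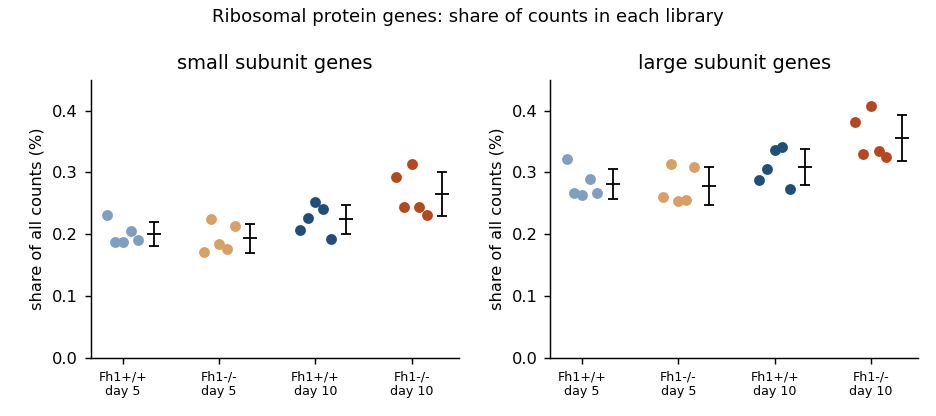
Share of all counts held by small (left) and large (right) subunit genes in each of the 20 libraries, as percent, with the mean and SD of each group of 5 at its side. The Fh1-/- day 10 group is the highest in both panels, with means of 0.265% and 0.356%, and its upper points are replicates 1 and 3.

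Levels per kilobase used the length of the coding transcript chosen for each member, on the scale of CPM after trimmed-mean (TMM) scaling. Rpl8 (544), Rpl4 (397) and Rplp1 (377) were among the highest over the 20 libraries. Rpl8 belongs to the rRNA core near the peptidyl transferase centre, Rpl4 reaches into the tunnel through which the new peptide leaves, and Rplp1 is part of the stalk that recruits elongation factors. The lowest levels among members that were tested were those of Rpl19 (0.884), Rpl11 (1.21), Rps27 (1.52) and Rpl10 (1.53). Of the stretches of these 4 transcripts, 20.7%, 37.8%, 1.35% and 7.87% were unique, so the order describes placed reads.

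At day 10, in Fh1-/- against Fh1+/+, transcripts of both subunits were mostly higher in the null kidneys, but no member passed the study's threshold. A call required an adjusted p under 0.01 in edgeR's quasi-likelihood test, with Benjamini-Hochberg adjustment over all genes, and a log2 fold change beyond 0.58 in size. Of the 85 members, 70 passed the filter on low counts and could be tested, 26 small and 44 large. None was called, where 8 of 14360 genes were, or 0.0557%. With DESeq2 in place of edgeR, 1 member was called, where 796 of 14360 genes were, or 5.54%. At an unadjusted p under 0.05, 35 members were higher and 0 lower, 15 small and 20 large, where 15.1% of all genes were higher. At an adjusted p under 0.05 with no fold limit, 1 member was higher, where 1.88% of all genes were.

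The log2 fold change was above 0 for 62 of 70 members, 25 of 26 small and 37 of 44 large. Its median was 0.42, with 0.44 for the small and 0.40 for the large subunit, beside -0.00 over all genes. In 8 members all 5 Fh1-/- libraries lay above all 5 Fh1+/+ libraries, where this held for 4.42% of all genes, and in 0 members did they lie below. These 8 were Rps9, Rps10, Rps14, Rps18, Rpl3l, Rpl6, Rpl23 and Rpl34. Without Fh1-/- replicates 1 and 3 the median was 0.14, 55 members were above 0, and 12 were higher at an unadjusted p under 0.05, where 10.8% of all genes were. With limma-voom and library quality weights the median was 0.19 and 16 members were higher, where 12.6% of all genes were. The members' median was 0.43 over the 29 tested members with at least 50% unique stretches and 0.41 over the 40 below that.

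**Figure D3:**
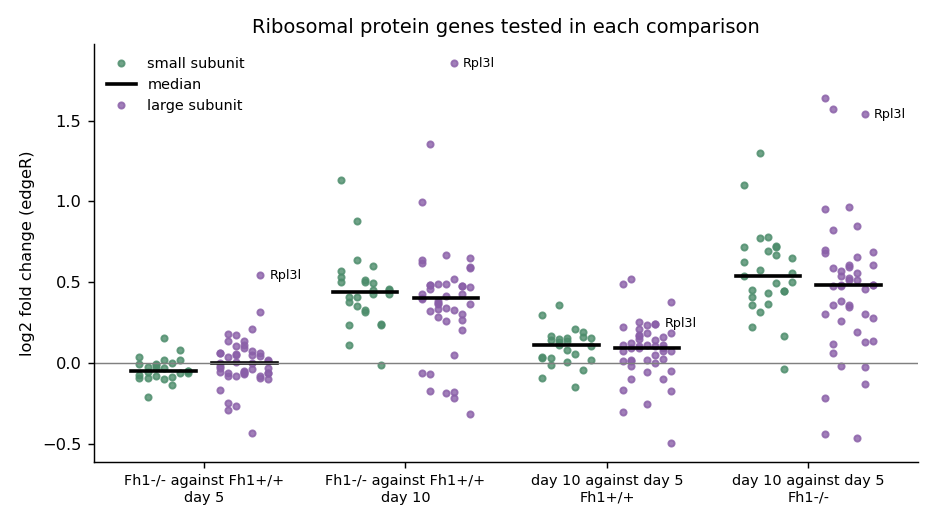
Log2 fold change (edgeR) of each tested member in 4 comparisons, with small subunit genes at the left and large subunit genes at the right of each pair and black lines at the medians. The medians are near 0 at day 5, 0.44 and 0.40 at day 10, 0.11 and 0.10 for time in Fh1+/+, and 0.54 and 0.48 for time in Fh1-/-; Rpl3l is the highest point in both genotype comparisons.

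Small subunit members were led by Rps9, which helps to set decoding accuracy. Its levels were 258, 181, 270, 207 and 196 CPM in the 5 Fh1-/- libraries and 157, 143, 177, 165 and 137 in the Fh1+/+ libraries, so the groups did not overlap. The difference was 0.50 ± 0.14 on the log2 scale (SE), with an adjusted p of 0.0732 by edgeR. Rps3a1, a protein of the platform where mRNA leaves the subunit, had 56.6, 34.8, 53.3, 41.4 and 38.7 CPM against 30, 29.4, 35.9, 32.6 and 29.7, and here 1 control library was above the lowest Fh1-/- library. Rps18, in the head of the subunit, had 52.2, 38.1, 47.9, 37.6 and 35.1 CPM against 32.7, 28.1, 34.6, 29.0 and 28.2, without overlap. Their differences were 0.50 ± 0.15 and 0.45 ± 0.13 (SE), with adjusted p of 0.0785 and 0.0802 by edgeR. Without Fh1-/- replicates 1 and 3 the differences of Rps9, Rps3a1 and Rps18 were 0.32 ± 0.11, 0.28 ± 0.10 and 0.27 ± 0.10, with adjusted p from 0.171 to 0.189 by edgeR. Rps12, a protein of the beak of the small subunit, had only 9.89% unique stretches and 578 reads in all, at 2.68 ± 0.792 CPM against 1.44 ± 0.290 (SD, n = 5). It differed by 0.88 ± 0.27 (SE), and by 0.59 ± 0.28 without those libraries.

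Among large subunit members, Rpl23 sits on the face that meets the small subunit. It had 103, 57.8, 106, 70.1 and 60.1 CPM in Fh1-/- and 50, 49.0, 54.6, 51.0 and 47.1 in Fh1+/+. The Fh1-/- libraries were all higher, and replicates 1 and 3 stood well above the other 3. Its log2 difference was 0.64 ± 0.18 (SE, adjusted p = 0.0739 by edgeR). Rpl4 had 969, 718, 949, 768 and 652 CPM against 589, 543, 658, 568 and 522, and differed by 0.48 ± 0.15, with 1 control library above the lowest null library. Rpl6 had 33.3 ± 6.30 CPM against 23.6 ± 2.07 (SD, n = 5) and differed by 0.48 ± 0.14, with no overlap. Without replicates 1 and 3 the differences of Rpl23, Rpl4 and Rpl6 were 0.31 ± 0.09, 0.31 ± 0.12 and 0.29 ± 0.10, with adjusted p from 0.123 to 0.204 by edgeR.

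The next largest differences belonged to members with few placed reads. Rpl10a, of the stalk that moves tRNA out of the ribosome, had 4.17, 0.956, 5.83, 2.35 and 2.11 CPM in Fh1-/- against 1.18, 0.971, 1.1, 1.5 and 1.17 in Fh1+/+. Replicate 2 of Fh1-/- was the lowest of the 10 libraries and replicates 1 and 3 the highest. The log2 difference was 1.36 ± 0.43 (SE, adjusted p = 0.0904 by edgeR), on 586 reads over the 20 libraries. Rps27, a zinc finger protein of the small subunit, differed by 1.13 ± 0.60 on 195 reads. Rpl10, which joins the large subunit late in its assembly, had 4.35, 1.13, 4.12, 0.785 and 0.945 CPM against 1.02, 0.555, 1.38, 1.12 and 1.51, and its excess lay in replicates 1 and 3 alone. Without these libraries Rpl10a differed by 0.61 ± 0.33, Rps27 by 1.09 ± 0.69 and Rpl10 by -0.23 ± 0.37, the last in the other direction.

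Rpl3l stood apart from the other members. It is the paralog of Rpl3 that takes the place of Rpl3 in ribosomes of heart and skeletal muscle. It had 8.28, 5.01, 8.67, 9.98 and 10.3 CPM in Fh1-/- at day 10 and 2.82, 0.925, 2.87, 2.62 and 2.29 in Fh1+/+, so that its lowest null library was above every control. At day 5 it had 2.87 ± 1.11 CPM in Fh1-/- and 1.95 ± 0.468 in Fh1+/+ (SD, n = 5). The log2 difference at day 10 was 1.86 ± 0.31 (SE), with an adjusted p of 0.0269 by edgeR, which is above the threshold of 0.01. Unlike most members it was as far apart without Fh1-/- replicates 1 and 3, at 1.87 ± 0.36 with an adjusted p of 0.0631. Over 21 alternatives its log2 difference ran from 1.65 to 2.00 and its adjusted p from 9.33e-07 to 0.0906. It was called by DESeq2 (adjusted p = 9.33e-07), in a fit of all 20 libraries, and when Fh1-/- day 10 replicate 2 was left out. These 3 settings called 5.54%, 5.61% and 1.62% of all genes.

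The reads of Rpl3l can be told from those of Rpl3, since 100% of its stretches are found in no other gene. The first 30 coding bases of both show how far they have drifted, with capitals at the bases that differ.
Rpl3: atgtcTcacAggaaAttctcAgcTccCAgg
Rpl3l: atgtcCcacCggaaGttctcTgcCccTCgg
Of these bases 23 are identical. The row of Rpl3l covers chr17:24727820-24736143 on the plus strand. The next gene downstream on that strand, Msrb1, a methionine sulfoxide reductase, begins 498 bases beyond its end and had 379 ± 140.5 CPM in Fh1-/- against 137 ± 58.3 in Fh1+/+ at day 10 (SD, n = 5), a log2 difference of 1.45 ± 0.34 (SE, adjusted p = 0.0495 by edgeR). Upstream, Rps2 and Ndufb10 differed by 0.41 ± 0.20 and -0.07 ± 0.11. Whether reads of Msrb1 transcripts reach the Rpl3l row was not tested. The striated muscle genes Ckm, Acta1, Myh7, Tnnt2 and Mb, looked up after the values of Rpl3l were seen, were at most 0.844 CPM in every library, and Ttn was at most 1.62 CPM.

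**Figure D4:**
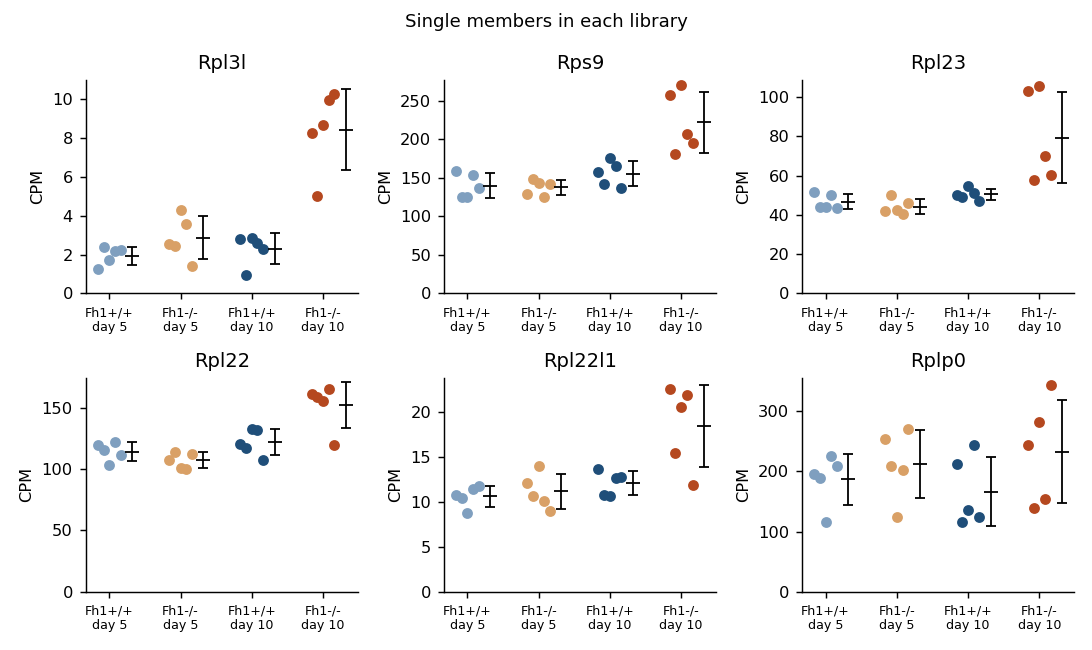
Level in CPM of 6 members in each of the 20 libraries, grouped by genotype and day, with the mean and SD of 5 libraries beside each group. Rpl3l is between 5.01 and 10.3 CPM in Fh1-/- at day 10 and at most 4.30 in the other 3 groups; Rpl22 is high in 4 of 5 Fh1-/- day 10 libraries, and Rplp0 spreads widely in every group.

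Other members also have paralogs in the set. Rpl22, an RNA-binding protein without which mice live and raise Rpl22l1, had 161, 159, 156, 166 and 119.6 CPM in Fh1-/- at day 10 and 121, 118, 133, 132 and 108 in Fh1+/+. Here replicate 5 was the low library, and replicates 1 to 4 lay close together. The difference of Rpl22 was 0.30 ± 0.11 on the log2 scale. Rpl22l1 had 22.5, 15.4, 20.5, 21.8 and 11.9 CPM against 13.6, 10.7, 10.6, 12.7 and 12.7, again with replicate 5 lowest, and differed by 0.59 ± 0.18. The adjusted p were 0.133 and 0.0896 by edgeR, and without replicates 1 and 3 the differences were 0.28 ± 0.13 and 0.43 ± 0.19. Per kilobase, Rpl22 was at 321 CPM and Rpl22l1 at 33.3 in the same null kidneys.

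For Rpl7 and its divergent relative Rpl7l1 the values stood as follows. Rpl7 was at 185 ± 34.3 CPM against 140 ± 18.4 (SD, n = 5), 0.39 ± 0.15 on the log2 scale, and Rpl7l1 at 74.6 ± 10.4 against 71.2 ± 5.53, or 0.05 ± 0.11. These were 0.19 ± 0.12 and -0.09 ± 0.09 without replicates 1 and 3. Rps4x differed by 0.46 ± 0.19 and Rps4l by -0.01 ± 0.20. The Rps4l row, in the set by its symbol, is annotated as a transcribed processed pseudogene, with no coding transcript. The difference between the members of a pair was not tested. Rps27l, which stands at 131 CPM per kilobase in null kidneys at day 10 where Rps27 has 2.55, differed by 0.24 ± 0.26, and by -0.24 ± 0.17 without replicates 1 and 3. Their first 30 coding bases share 20, and capitals mark the rest.
Rps27: atgccTctCgcAaAGgatctCCtTcaTccC
Rps27l: atgccCctGgcTaGAgatctGTtAcaCccT
With 1.35% of its stretches unique, Rps27 is nearly closed to placed reads, while 77.6% of those of Rps27l are unique. Rpl36al and Rpl39 differed by 0.40 ± 0.20 and 0.49 ± 0.24 on the log2 scale, Rpl39 by 0.02 ± 0.12 without replicates 1 and 3, and Rpl36a, with 88 reads, was not tested.

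Only 8 tested members were below 0 at day 10, and all but Rps4l belong to the large subunit: Rpl15, Rpl27a, Rpl19, Rpl21, Rpl31, Rpl23a, Rpl5 and Rps4l. Rpl15 had the lowest value. Its levels were 32.3, 58.3, 27.6, 54.3 and 44.3 CPM in Fh1-/- and 48.1, 52.2, 37.8, 55.4 and 72.6 in Fh1+/+, so replicates 1 and 3 were the lowest of all 10. The log2 difference was -0.31 ± 0.23 (SE, adjusted p = 0.387 by edgeR). Rpl27a, Rpl19 and Rpl21 differed by -0.21 ± 0.13, -0.19 ± 0.38 and -0.18 ± 0.20. None of the 8 had an unadjusted p under 0.05.

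For most members the excess at day 10 was largest in Fh1-/- libraries 1 and 3. Expressed as log2 CPM minus the mean of each gene over the 20 libraries, for the 74 members tested in the fit of all libraries, the median deviation was 0.65 and 0.74 in these 2 libraries. It was 0.10, 0.17 and 0.05 in replicates 2, 4 and 5. In libraries 1 and 3 the small subunit genes averaged 0.74 and 0.74 and the large subunit genes 0.62 and 0.66. Of the 70 members tested at day 10, 56 were higher in libraries 1 and 3 than in each of the other 3 Fh1-/- libraries, or 80.0%, where 32.3% of all genes were. In the same 2 libraries the 10 proximal tubule genes summed to 5193 and 5397 CPM, against 14094 to 17653 in the other 3 Fh1-/- libraries and 14129 to 17492 in Fh1+/+ at day 10. Their scaling factors (TMM) were 0.838 and 0.826, below the 0.946 or more of every other library. The part of these differences in the members' levels was not tested.

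Rpl15, Rpl5 and Rpl23a ran against the others, as the only members lower in both of these libraries than in the other 3, where 34.2% of all genes were. After the group means were taken out, their Pearson correlation with the mean of the other members over the 20 libraries was -0.58, -0.46 and -0.53, where Rplp2 and Rpl32 had 0.96. These are descriptions over 20 libraries that share depth and scaling. Rpl5 and Rpl23a are members whose exons overlap Fam69a and Tlcd1 on the opposite strand, with 6.16% and 14.3% unique stretches, and Rpl15 overlaps Nkiras1 by 4.25% of its exon bases. The part of those genes in the counts was not tested. Rpl9 (0.10), Rps27 (0.16) and Rpl3l (0.17) followed the mean little, the first 2 of them with 223 and 195 reads in all.

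**Figure D5:**
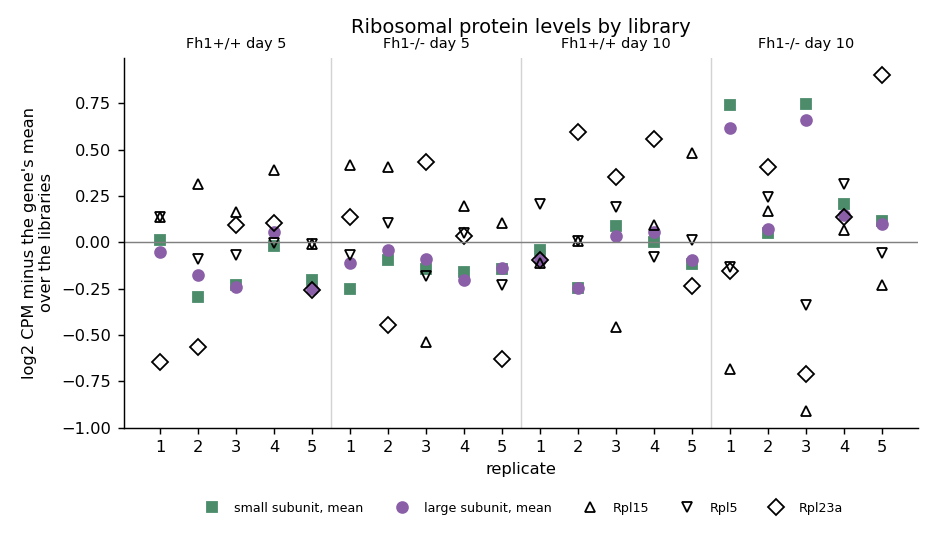
Log2 CPM minus the gene's mean over the 20 libraries, as the mean over small subunit (squares) and large subunit (circles) genes and for Rpl15, Rpl5 and Rpl23a singly, in each library. Squares and circles are highest in Fh1-/- day 10 replicates 1 and 3, at 0.62 to 0.74, where Rpl15 is at -0.68 and -0.91.

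At day 5 no member differed between the genotypes beyond the spread between replicates. Of 71 members tested, 25 small and 46 large, none was called by edgeR or by DESeq2. Of all 14404 genes, edgeR called 5, or 0.0347%, and DESeq2 called 31, or 0.215%. No member had an unadjusted p under 0.05 by edgeR in either direction, where 2.42% of all genes were higher at that p. The log2 fold change was above 0 for 28 of 71 members. Its median was -0.05 for the small subunit, with 5 of 25 above 0, and 0.00 for the large subunit, with 23 of 46 above 0. The highest values were those of Rpl3l (0.55 ± 0.30) and Rpl35 (0.32 ± 0.18), and the lowest those of Rpl27 (-0.43 ± 0.27) and Rpl17 (-0.29 ± 0.36). Of these members Rpl35 had the most reads over the 20 libraries, 2648.

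Whether the genotype difference changed between the days was tested with an interaction term over the 20 libraries. Of 74 members tested, none was called, where 5 of 14934 genes were, or 0.0335%. DESeq2 called 0 members as well, where it called 272 of 14934 genes, or 1.82%. At an unadjusted p under 0.05 the difference was larger at day 10 for 32 members, 14 small and 18 large, and smaller for 0, where it was larger for 11.8% of all genes. All 27 small subunit members tested were above 0, and 40 of 47 large. The median was 0.42, and 0.16 without Fh1-/- day 10 replicates 1 and 3, with 10 members then higher at an unadjusted p under 0.05, where 8.22% of all genes were. The smallest p values belonged to Rpl23 (0.71 ± 0.20), Rpl10a (1.59 ± 0.48), Rps3a1 (0.59 ± 0.18) and Rps9 (0.52 ± 0.16), with adjusted p of 0.0786, 0.0977, 0.0994 and 0.106 by edgeR. Rpl10a was called when Fh1-/- day 10 replicate 2 was left out, where 1.96% of all genes were. For Rpl3l the term was 1.30 ± 0.44, with an adjusted p of 0.126 by edgeR.

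Time was then taken within each genotype, with the Fh1+/+ day 10 and day 5 kidneys giving the change without gene loss. In Fh1+/+, 0 of 70 members tested were called by edgeR or by DESeq2, where 0 of 14501 genes were, or 0%. At an unadjusted p under 0.05, 3 members were higher at day 10, where 1.99% of all genes were. These were Rps24 (0.21 ± 0.08), Rpl39 (0.23 ± 0.10) and Rps15a (0.17 ± 0.07). The median was 0.11, with 56 of 70 above 0, and with limma-voom and quality weights 20 members were higher at that p, where 3.85% of all genes were.

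In Fh1-/-, of 73 members tested, none was called by edgeR, where 82 of 14235 genes were, or 0.576%, and 16 were called by DESeq2, where 1281 of 14235 genes were. At an unadjusted p under 0.05, 46 members were higher, 20 small and 26 large, where 17.9% of all genes were. At an adjusted p under 0.05, 20 members were higher, 7 small and 13 large, where 6.52% of all genes were. In 29 members, 14 small and 15 large, every day 10 library lay above every day 5 library, where 6.83% of all genes did so. The median was 0.50, with 0.54 for the small and 0.48 for the large subunit. Without replicates 1 and 3 it was 0.22, and an unadjusted p under 0.05 was found for 33 higher members and 1 lower one, where 1976 of 14623 genes were higher and 2046 lower.

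Rps9 had the smallest p, at 0.67 ± 0.13 (SE, adjusted p = 0.0176 by edgeR), from 130, 148, 144, 126 and 142 CPM at day 5 to the day 10 levels given above. Rpl3l differed by 1.54 ± 0.30 on the log2 scale (adjusted p = 0.0180), Rps18 by 0.65 ± 0.14 (0.0207) and Rpl22 by 0.48 ± 0.11 (0.0232), none of them past the threshold of 0.01. Rps3a1, Rpl23, Rpl7, Rpl4, Rps12, Rps14, Rpl34, Rpl14, Rpl3, Rpl10a, Rpl36, Rpl26, Rpl22l1 and Rps28 were also past an adjusted p of 0.05. These comparisons share the Fh1-/- day 10 libraries with the genotype comparison at day 10, so they are not separate evidence. When Fh1-/- day 10 replicate 2 was left out, 5 members were called, where 5.38% of all genes were: Rpl3l, Rps9, Rpl10a, Rpl23 and Rps3a1.

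Members with roles outside the ribosome's core were also taken singly. Rplp0, with Rplp1 and Rplp2 the base and arms of the acidic stalk, served as the reference gene of the study's quantitative PCR. It had 244, 140, 282, 155 and 343 CPM in Fh1-/- and 212, 116, 135, 244 and 125 in Fh1+/+ at day 10, with wide overlap and a log2 difference of 0.47 ± 0.30 (SE, adjusted p = 0.315 by edgeR). At day 5 it ranged from 124 to 271 CPM in Fh1-/- and from 115 to 225 in Fh1+/+. The partners were tighter in the controls, with Rplp1 at 177 ± 14.3 CPM and Rplp2 at 65.0 ± 7.01 in Fh1+/+ at day 10, and differed by 0.43 ± 0.22 and 0.32 ± 0.22, but by 0.02 ± 0.10 and -0.10 ± 0.10 without Fh1-/- replicates 1 and 3.

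Rpl5 and Rpl11 form with the smallest ribosomal RNA the particle that can bind Mdm2. Rpl5 was at 33.4 ± 6.26 CPM in Fh1-/- and 34.5 ± 3.00 in Fh1+/+ at day 10 (SD, n = 5), a log2 difference of -0.06 ± 0.13, and Rpl11, with 377 reads in all, differed by 0.28 ± 0.43. Rps6, the substrate of the S6 kinases, was at 8.76 ± 1.86 against 8.03 ± 1.22 CPM, or 0.11 ± 0.18. Rpsa, also known as the laminin receptor, differed by 0.60 ± 0.32, with 7.91 and 10.4 CPM in replicates 1 and 3 and 3.37 to 5.63 in the other 3 null libraries. When these 2 libraries were left out, Rpl5 differed by 0.10 ± 0.11, Rpl11 by -0.50 ± 0.35, Rps6 by -0.08 ± 0.18 and Rpsa by 0.11 ± 0.27. Rps27a, made as a fusion with ubiquitin, had 110 reads and was not tested. The row of Rack1 (as Gnb2l1), which sits on the small subunit, differed by 0.47 ± 0.16 on the log2 scale at day 10 and by -0.03 ± 0.07 at day 5.

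Genes that work with these proteins were read from lists chosen with earlier results known. Other TOP mRNAs were those for elongation and initiation factors and for proteins such as Tpt1 and Pabpc1. Of them 15 of 16 were above 0 at day 10, with a median log2 fold change of 0.46. At an unadjusted p under 0.05 there were 11 higher and 0 lower, where 15.1% of all genes were higher. Pabpc1, the poly(A)-binding protein, differed by 0.47 ± 0.11 (SE, adjusted p = 0.0459 by edgeR). Of 74 ribosome biogenesis factors, 67 were above 0 with a median of 0.33. At an unadjusted p under 0.05 there were 36 higher and 1 lower, where 2167 of all 14360 genes were higher and 1704 lower. Sbds and Ddx21, which act in large subunit maturation and in nucleolar RNA processing, differed by 0.52 ± 0.11 and 0.63 ± 0.13, each with an adjusted p of 0.0383 by edgeR. None of either list was called. Without replicates 1 and 3 their medians were 0.36 and 0.18, with 9 and 20 genes higher at an unadjusted p under 0.05 and none at an adjusted p under 0.05. Pabpc1, Sbds and Ddx21 then had adjusted p of 0.0975, 0.0975 and 0.0999 by edgeR.

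Of 21 genes of TOP mRNA and growth control, 16 were above 0 with a median of 0.13, with 6 higher against 1 lower at that p. Myc, a transcription factor that drives ribosome production, differed by 2.72 ± 0.52 (SE, adjusted p = 0.0351 by edgeR) at day 10 and by -0.77 ± 0.35 at day 5. Its level was 47.0 ± 36.2 CPM in Fh1-/- against 7.08 ± 2.02 in Fh1+/+ at day 10 (SD, n = 5), and without replicates 1 and 3 it differed by 1.56 ± 0.25 (adjusted p = 0.0410 by edgeR). Without those libraries the median of the 21 genes was 0.06. Of 10 ribosome quality control genes, 4 were above 0, with a median of -0.02, or -0.01 without those libraries. The proteins of the other ribosome of the cell, in mitochondria, gave 36 of 76 tested above 0 and a median of -0.02, with 4 past an unadjusted p of 0.05 upwards and 7 downwards. Of all 14360 genes, 2167 were past that p upwards and 1704 downwards. In the fit without replicates 1 and 3, 15 of the mitochondrial genes were above 0 and their median was -0.16. Of them 1 was past that p upwards and 12 downwards, where 10.8% and 8.33% of all genes were. From day 5 to day 10 in Fh1-/-, 22 of the 76 were above 0, with a median of -0.11, 16 lower and 3 higher at an unadjusted p under 0.05, and 1 called lower. Of all 14235 genes, 2044 were lower and 2543 higher at that p, and 34 were called lower. In Fh1+/+ over the same days the median of the mitochondrial genes was -0.07. The difference between the cytosolic and mitochondrial sets was not tested. At day 5 the medians of the TOP, biogenesis, control, quality control and mitochondrial lists lay between -0.05 and 0.01.

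Medians of several lists of kidney cell markers, though not of all, lay away from 0 at day 10 as well. The median log2 fold change was -0.44 over 10 proximal tubule genes, with 2 above 0, -0.03 over 9 genes of the loop of Henle and distal nephron, -0.45 over 5 podocyte genes and -0.63 over 6 endothelial genes. It was -0.93 over 8 pan-leukocyte genes, -1.1 over 8 myeloid and -1.14 over 7 fibroblast and smooth muscle genes. Over 5 proliferation genes it was -1.42. Of the pan-leukocyte genes 6 were lower at an unadjusted p under 0.05, where 1704 of all 14360 genes were. Summed pan-leukocyte levels were 62.6 to 127 CPM in Fh1-/- and 132 to 183 in Fh1+/+, without overlap, and fibroblast and smooth muscle levels 100.2 to 354 against 284 to 688. Levels summed over 6 proliferation genes did not follow their median, at 28.9 to 65.5 CPM in Fh1-/- and 30.6 to 55.1 in Fh1+/+. Fh1-/- replicates 1 and 3 were the highest, at 65.3 and 65.5 CPM. Lymphocyte genes were near 0, at most 6.69 CPM summed over 8 genes, with Cd79a and Ms4a1 at 0 in 3 and 4 libraries. Fat cell genes ranged from 1.46 to 155 CPM in Fh1-/- and from 0.666 to 58.9 in Fh1+/+ at day 10. Without replicates 1 and 3 the medians were -0.06 for proximal tubule, 0.05 for distal, 0.01 for podocyte and -0.09 for endothelial genes, and -0.71 for pan-leukocyte, -0.56 for myeloid, -0.71 for fibroblast and smooth muscle and -1.57 for proliferation genes. The part of these shifts in the members' levels was not tested.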

How the data were processed

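RNA from snap-frozen kidney pieces was polyA-selected with the stranded TruSeq mRNA kit. The authors trimmed reads with Cutadapt, aligned them to GRCm38 with STAR (2.6.0c), dropped those with mapping quality under 20 and counted them per gene in R with GENCODE release 17. The deposited values are raw read counts per gene, with 24421 rows and 20 columns, and no source used here states the strand setting of the counting. The members and lists were chosen with earlier results of these data known. Genotypes were compared at each day, days within each genotype, and the interaction over all 20 libraries, with edgeR 4.0.16 in R 4.3.3 (TMM, filterByExpr, glmQLFit, glmQLFTest). A call needed an adjusted p under 0.01 over all genes tested and a log2 fold change beyond 0.58. CPM use TMM-scaled totals, and shares use raw totals. Members were named by a fixed rule: the smallest p in each comparison, the highest and lowest fold changes and levels per length, paralogs and members of special role, and those that follow the others least, 46 in all; others are named where a count is spelled out, after their values were seen, and a few items are not reported here. Positions and transcripts come from GENCODE release 21, start sites from RefSeq. Alternatives were DESeq2 1.42.0, limma-voom 3.58.1 with quality weights, relative log expression (RLE) scaling, TMM without the members, no filter or 1 CPM in 5 libraries, the replicate block, Y-linked expression as a covariate, an adjusted p under 0.05, a fit of all libraries, and each library left out. Replicates of a group differed by at least 7.84 in chi-square per degree of freedom over 40 pairs, so none was a duplicate. Same-numbered libraries did not deviate together: 4 of 20 pairs had a correlation over 0.1. The scripts were checked on simulated counts. Intervals and floors cover counting error only, and labels name no batch or sex.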

Additional observations from a re-analysis of the deposited data

Results flagged for a closer look

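A library far from the other 4 of its group, by Dixon's criterion at the 95% level, was found in 6 of 172 groups of 5 values, over 41 members and the shares of the 2 subunits, and chance alone gives about 1 in 20. In Fh1-/- at day 10, Rpl22 was at 119.6 CPM in replicate 5, where the others had 155.7 to 165.9. In Fh1+/+ at day 10, Rpl21 was at 2.18 CPM in replicate 5, where the others had 3.18 to 3.53. In the same group Rpl36a was at 0.555 CPM in replicate 2 and at 0.166 to 0.267 in the others. In Fh1+/+ at day 5, Rpl10a was at 0.827 CPM in replicate 2 (others 1.24 to 1.38) and Rps15a at 36.6 CPM in replicate 3 (others 43.6 to 46.4). In Fh1-/- at day 5, Rpl11 was at 0.401 CPM in replicate 3 and at 0.927 to 1.06 in the others. Rpl10a, Rpl11, Rpl21 and Rpl36a rest on 1039 reads or fewer over the 20 libraries.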

How the results depend on the processing

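At day 10 the count of called members was 0, and it was 1 with DESeq2, 1 at an adjusted p under 0.05 without a fold limit, 2 in one fit of all libraries and 1 without Fh1-/- replicate 2. Of all genes, 5.54% were called with DESeq2, 5.61% in the one fit and 1.62% without that replicate. At an adjusted p under 0.05 by edgeR, 270 genes were higher and 136 lower. For the interaction the count of called members was 0, and 1 without Fh1-/- day 10 replicate 2, where 1.96% of all genes were called. For time in Fh1-/- it was 0, and 20 at an adjusted p under 0.05, 16 with DESeq2, 2 with limma-voom and quality weights, 19 in one fit of all libraries and 5 without Fh1-/- day 10 replicate 2, where 1281, 484, 1294 and 774 of all genes were under these 4. Leaving out single libraries gave 0 to 1 called at day 10, 0 to 1 for the interaction, 0 to 5 for time in Fh1-/-, and 0 at day 5 and for time in Fh1+/+. The members' median log2 fold change then ran from 0.32 to 0.51 at day 10, from -0.06 to 0.01 at day 5, from 0.31 to 0.50 for the interaction, from 0.06 to 0.14 for time in Fh1+/+ and from 0.40 to 0.59 for time in Fh1-/-. With the replicate number as a block the calls were 0 in every comparison, and the medians were 0.38 at day 10, 0.40 for the interaction and 0.47 for time in Fh1-/-. Replicate numbers do not pair the libraries: correlations of same-numbered deviations ran from -0.51 to 0.33, and 3 of 20 were best with their own number. Of 2993 values of single members under the alternatives, 52 came to pass the threshold and 99 had another sign than the value reported, none of these 99 called. Leaving out 1 library took Rpl11 from 0.28 to -0.10, Rpl23a from -0.07 to 0.10 and Rpl5 from -0.06 to 0.02 at day 10, and Rpl9 from 0.28 to -0.13 for the interaction. Little can be seen of the 25 members with under 1000 reads, and why they have few was not tested. Without 2 of the 5 Fh1-/- day 10 libraries the median difference at day 10 falls from 0.42 to 0.14.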
